A study of Mus musculus with 29 samples.

Results

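The focal adhesion adaptors and kinases described here are 10 mouse genes: Crk, Crkl, Tln1, Vcl, Pxn, Ptk2, Ptk2b, Bcar1, Zyx and Ilk. They were chosen by name, and each matched 1 Ensembl gene in both count tables, so that they make up 10 of 38924 genes in the table of blood progenitors and 10 of 18194 genes in the table of niche cells. The blood progenitors are LSK cells (lineage-negative, Sca-1+, Kit+), a sorted bone marrow fraction that contains the stem cells, taken after transplantation into hosts with a Wnt5a-haploinsufficient niche (5 libraries) or a WT niche (6 libraries). The niche itself was sorted into 3 populations, called EC (endothelial), OBC (osteoblastic) and MSC (mesenchymal) in the labels, each with 3 Wnt5a and 3 WT libraries. The labels give the strain as 129Ly5.1 throughout and the genotype as that of the niche, so "Wnt5a" marks the host in which LSK cells regenerated, not a change in the LSK cells. The age of the animals, the cell dose, the time after transplantation and whether libraries come from separate animals are not stated, so p-values measure the spread between libraries. The series title names actin regulation in regenerating stem cells as the theme, and focal adhesion proteins tie integrins to actin.

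Focal adhesions form where integrin receptors bind extracellular matrix. Talin, encoded by Tln1, binds the tails of integrins and the actin cytoskeleton, and vinculin (Vcl) strengthens that link under force. Paxillin (Pxn) is a scaffold for signalling proteins, the tyrosine kinases FAK (Ptk2) and PYK2 (Ptk2b) phosphorylate such scaffolds, p130Cas (Bcar1) is one of their substrates, and Crk and Crkl are adaptors that bind the phosphorylated scaffolds through SH2 domains. Zyxin (Zyx) is a LIM protein that gathers on actin fibres under tension, and integrin-linked kinase (Ilk) is a scaffold that binds parvins and PINCH proteins. In blood cells, PYK2 is known as the FAK relative of leukocytes and platelets.

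Crk and Crkl are paralogues that are compared within each LSK library, and Vcl is a known target of the actin-sensing MRTF and SRF transcription factors, so the 250 bases before the start of these 3 genes are shown (RefSeq, GRCm38.p6, plus strand, 5′ to 3′). Capitals mark a CRE (TGACGTCA) and a CCAAT box in Crkl at chr16:17451735-17451984. They mark CCAAT boxes and a GC box (GGGCGG) in Crk at chr11:75679009-75679258, and a CArG box alone in Vcl at chr14:20929148-20929397, where other motifs were left in lower case. Each motif was searched on both strands.
Crkl: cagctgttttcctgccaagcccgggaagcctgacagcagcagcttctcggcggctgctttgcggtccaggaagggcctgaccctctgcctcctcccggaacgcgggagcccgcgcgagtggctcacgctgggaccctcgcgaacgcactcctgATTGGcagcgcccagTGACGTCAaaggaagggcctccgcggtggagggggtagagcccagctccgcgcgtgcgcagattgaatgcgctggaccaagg
Crk: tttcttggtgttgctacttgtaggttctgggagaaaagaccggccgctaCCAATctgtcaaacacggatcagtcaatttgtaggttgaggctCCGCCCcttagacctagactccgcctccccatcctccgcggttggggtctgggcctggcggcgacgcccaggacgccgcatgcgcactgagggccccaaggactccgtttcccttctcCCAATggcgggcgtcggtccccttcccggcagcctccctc
Vcl: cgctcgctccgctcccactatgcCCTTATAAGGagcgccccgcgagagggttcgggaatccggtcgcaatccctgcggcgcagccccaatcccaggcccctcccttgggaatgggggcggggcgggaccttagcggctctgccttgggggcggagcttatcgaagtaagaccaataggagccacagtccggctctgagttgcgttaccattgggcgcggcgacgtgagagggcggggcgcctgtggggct
Promoter windows matched 7 of the 10 genes, with 9 windows in all because Ilk and Bcar1 have more than 1. Among those 7, a CRE was found in 1 (Crkl) and a CArG box in 1 (Vcl), a CCAAT box in 4 and a GC box in 5. Of 32851 mouse promoter windows, 1.55% hold the CRE, 1.47% the CArG box, 33.8% the CCAAT box and 32.7% the GC box. These shares are per window, while a gene was counted when any of its windows held the motif, so the units differ. A match describes letters in the window and does not show a bound site.

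The genes lie on 9 chromosomes of GRCm38. Ilk (chromosome 7, 105736592 to 105742925) is the one with most exon sequence in common with neighbours: 2461 of its 2744 exon bases, or 89.7%, also belong to Taf10 or Rrp8 on the opposite strand. Vcl shares 25.5% of its exon bases with Ap3m1 on the opposite strand, Zyx shares 4.38% with Epha1 and Tln1 shares 3.67% with Creb3. The other 6 share none. Whether reads were counted by strand is not given in the sources used here, so reads of Ilk and of its neighbours may have been counted for neither or for both.

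LSK libraries held 1573560 to 3690114 reads from Wnt5a niches and 1254553 to 5775459 reads from WT niches. Niche libraries held 10635 to 117989 unique molecular identifiers (UMIs), with OBC the shallowest. All 7 LSK markers were detected in LSK libraries, with summed levels of 1696 to 2341 CPM (counts scaled to library totals) in Wnt5a and 1626 to 2374 CPM in WT. Endothelial markers summed to 8076 to 11733 CPM in Wnt5a EC and 8198 to 11132 CPM in WT EC, but also to 4807 to 6611 CPM in Wnt5a MSC and 9130 to 9777 CPM in WT MSC. The mesenchymal markers of MSC libraries summed to 2763 to 7123 CPM in Wnt5a and 3896 to 5130 CPM in WT. The endothelial sums of WT MSC lie within the range of WT EC, so MSC is used here as the name of the sort, not of a purely mesenchymal population. Osteoblast markers summed to 2101 to 5355 CPM in Wnt5a OBC and 4647 to 18086 CPM in WT OBC, against 202 to 339 CPM in Wnt5a EC and 193 to 315 CPM in WT EC. The LSK and niche tables were made with different library protocols (Smart-seq2 reads and UMI counts of transcript ends), so levels are not compared between them. In these bulk samples, fewer cells of a type and less RNA per cell cannot be told apart.

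In LSK cells the 10 genes fell into a high set and a set near or at the limit of detection, with Ptk2 between them. Per kilobase of exon, Crk was highest at a mean of 41.0 ± 7.87 CPM per kb (SD, n = 11 libraries), followed by Zyx at 33.1 ± 7.42, Ptk2b at 19.1 ± 5.43, Tln1 at 14.5 ± 5.86, Crkl at 7.79 ± 5.05 and Pxn at 7.0 ± 2.23 CPM per kb. Ptk2b and Tln1 differed in mean by less than either SD, as did Crkl and Pxn, and the other neighbours in this order differed by more than the larger SD. Ptk2 was far lower at 0.846 ± 0.401 CPM per kb, but was detected in every library, with 11 to 39 reads in Wnt5a and 14 to 53 in WT. Vcl had 0 to 13 reads per library, Bcar1 had 0 to 4, and Ilk had 0 reads in 10 of 11 libraries and 2 reads in WT replicate 3. In LSK cells talin, paxillin and zyxin transcripts were plentiful while those of vinculin and p130Cas were near the level of 3 reads, which is 0.813 to 1.91 CPM in Wnt5a and 0.519 to 2.39 CPM in WT libraries.

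The absence of Ilk reads stands beside the exon overlap described above. Ilk had 150 UMIs in the niche table. The low count of Ilk in LSK cells is therefore given as the deposited value only, and the part of the overlap in it was not tested.

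**Figure D1:**
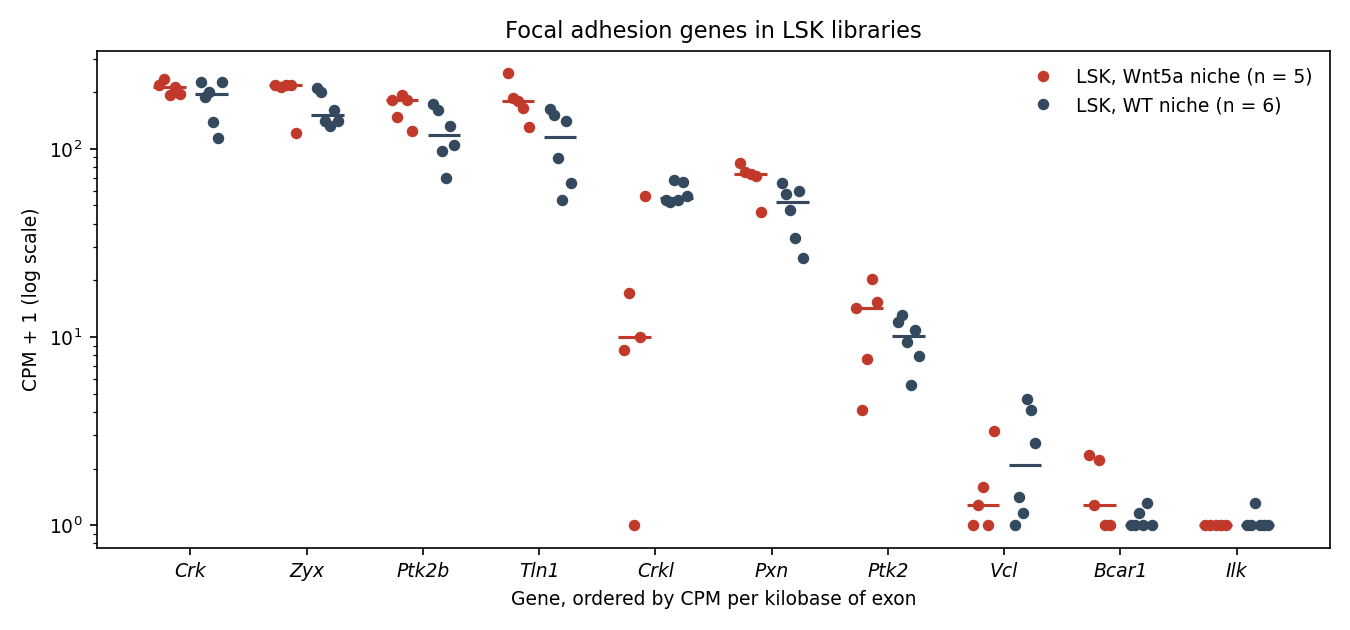
Levels of the 10 focal adhesion genes in LSK libraries, as CPM + 1 on a log scale, with Wnt5a niches in red left of WT niches in blue for each gene. Points are libraries and lines are medians. Crkl is the gene with 4 Wnt5a libraries below all 6 WT libraries, while Tln1, Pxn and Ptk2b have higher medians in Wnt5a and overlapping groups.

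The adaptor Crkl was lower in 4 of the 5 LSK libraries from Wnt5a niches. Its level was 7.5, 16.2, 0, 9.0 and 55.0 CPM in Wnt5a replicates 1 to 5, against a lowest, median and highest value of 51.4, 53.8 and 67.4 CPM in the 6 WT libraries. In reads, the Wnt5a libraries had 22, 57, 0, 12 and 126 and the WT libraries had 66 to 425. Wnt5a replicates 1 to 4 lay below every WT library, and Wnt5a replicate 5 lay among them, so the groups overlap on these scaled totals. On plain library totals, replicate 5 was at 49.6 CPM, just below the lowest WT value of 52.6 CPM. Over all 11 libraries the log2 fold change was -1.69 (SE 0.65) and did not pass the test, which asks for a Benjamini-Hochberg adjusted p under 0.05 over every gene tested (edgeR adjusted p = 0.194, unadjusted p = 0.0199). Without Wnt5a replicate 5 it was -2.75 (SE 0.55, edgeR adjusted p = 0.0105), where 8.32% of all genes passed. With the 3 Wnt5a and 6 WT libraries whose labels have 4-digit numbers, it was -2.78 (edgeR adjusted p = 0.0191), where 6.34% of all genes passed. That subset leaves out Wnt5a replicates 4 and 5, whose labels have 3-digit numbers and have no WT counterpart. Both fits leave out replicate 5, the Wnt5a library with the highest Crkl value, which favours a lower level in Wnt5a. Their calls are therefore no support for a difference. Of the 11 fits that left out 1 library, Crkl passed in 1, and its log2 fold change ran from -2.75 to -1.39. Replicate 5 also differed in other ways: immunoglobulin genes took 8.28% of its reads, against 0.264 to 0.972% in the other Wnt5a libraries and 0.262 to 2.12% in WT, and the B and plasma cell markers summed to 21162 CPM, against 1004 to 4355 CPM in the other Wnt5a libraries and 598 to 3837 CPM in WT. Satellite repeat transcripts took 0.341% of its reads and 1.28 to 6.73% in the other Wnt5a libraries, against 0.0836 to 0.417% in WT. The part of these differences in the Crkl result was not tested.

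The paralogue Crk had overlapping values. It was at 216, 233, 192, 211 and 194 CPM in Wnt5a replicates 1 to 5, against a lowest, median and highest value of 113, 194 and 224 CPM in WT libraries. The Wnt5a libraries lay within the WT range apart from replicate 2, which lay just above it, and the log2 fold change was 0.21 (SE 0.19 and edgeR adjusted p = 0.580). Expressed as a ratio inside each library, there were 3.48, 6.93, 0, 4.24 and 28.4 Crkl reads per 100 Crk reads in Wnt5a replicates 1 to 5, against 23.3 to 58.1 with a median of 30.5 in WT. Again 4 Wnt5a libraries lay below every WT library and replicate 5 lay among them. Crk exceeded Crkl in all 11 libraries, with 5992 and 1386 reads in all. The ratio does not depend on how libraries are scaled, and the test of Crkl was the one given above.

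**Figure D2:**
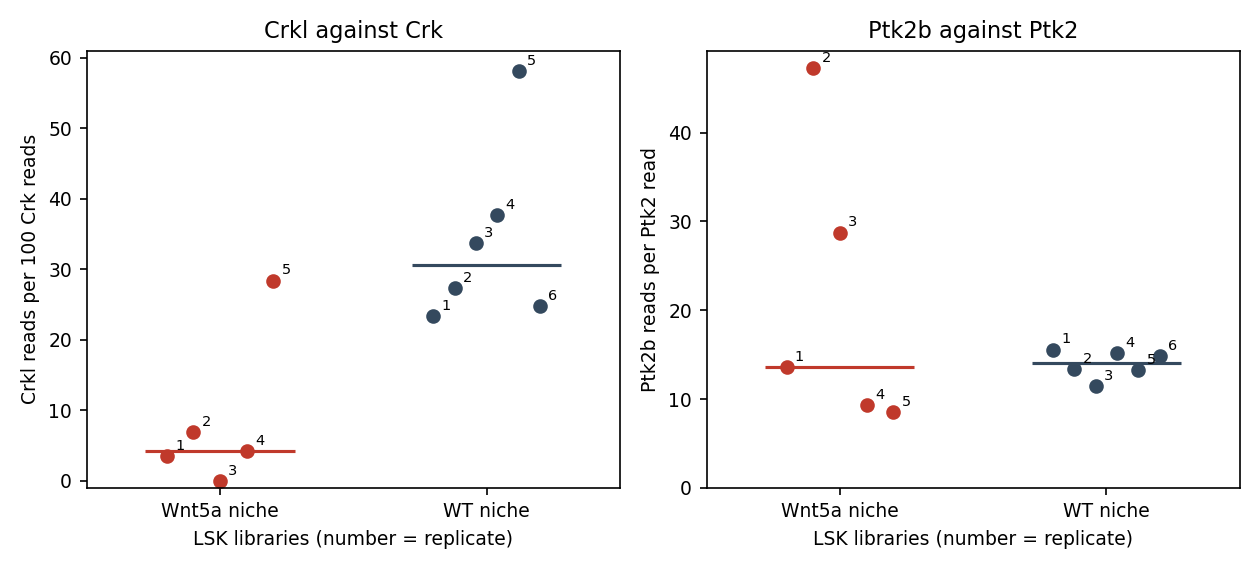
Paralogue ratios in LSK libraries, with the 5 Wnt5a libraries left and the 6 WT libraries right in each panel, each point labelled with its replicate number and lines at the medians. Crkl reads per 100 Crk reads (left panel) are 0 to 6.93 in Wnt5a replicates 1 to 4 and 23.3 to 58.1 in WT, and Ptk2b reads per Ptk2 read (right panel) exceed 8 in every library.

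The integrin-binding and scaffold genes had positive log2 fold changes that did not pass the test. Tln1 was at 251, 186, 177, 164 and 130 CPM in Wnt5a replicates 1 to 5, against a lowest, median and highest value of 52.5, 114 and 162 CPM in WT libraries. Wnt5a replicates 1 to 4 lay above every WT library, and replicate 5 lay within the WT range. The log2 fold change was 0.74 (SE 0.28 and edgeR adjusted p = 0.189, unadjusted p = 0.0182). Pxn was at 83.0, 74.5, 72.6, 70.9 and 45.4 CPM in Wnt5a, against a lowest, median and highest value of 25.4, 51.5 and 64.9 CPM in WT. Its pattern over libraries was like that of Tln1, with replicates 1 to 4 above every WT library. The log2 fold change of Pxn was 0.55 (SE 0.27, edgeR adjusted p = 0.289). Zyx was at 216, 213, 218, 217 and 120 CPM in Wnt5a, against a lowest, median and highest value of 131, 150 and 209 CPM in WT. Here replicates 1 to 4 lay above every WT library and replicate 5 lay below every one, and the log2 fold change was 0.27 (SE 0.20 and edgeR adjusted p = 0.479). These orders depend on the scaling of library totals. On plain library totals, Tln1 in replicate 4 was at 139 CPM, below the highest WT value of 163 CPM. Pxn in replicate 4 was then at 60.4 CPM, below the highest WT value of 65.4 CPM. Zyx in replicates 2 to 4 was at 203, 210 and 184 CPM, below the highest WT value of 213 CPM. Without replicate 5 the log2 fold changes of Tln1, Pxn and Zyx were 0.84, 0.67 and 0.41, and none passed (edgeR adjusted p = 0.0804, 0.128 and 0.151). Sums over the lists of neutrophil, mesenchymal and endothelial markers also differed between these libraries. Single markers did not all follow their sum. Of the 3 neutrophil markers tested in LSK cells, S100a8 and Mpo had positive log2 fold changes (1.52 and 1.05) and Elane a negative one (-1.51). None of the 3 passed. Of 7 tested endothelial markers, 5 were negative and 2 positive. The 8 neutrophil markers, none of them at 0 in either group, summed to 324 to 520 CPM in Wnt5a replicates 1 to 4 and 259 CPM in replicate 5, against 192 to 293 CPM in WT. The 8 mesenchymal markers summed to 59.0 to 100.1 CPM in Wnt5a replicates 1 to 4 and 24.0 CPM in replicate 5, against 34.5 to 55.4 CPM in WT, with Clec3b at 0 in every Wnt5a library. The 10 endothelial markers, none at 0, summed to 229 to 315 CPM in Wnt5a replicates 1 to 4 and 370 CPM in replicate 5, against 356 to 521 CPM in WT. Mitochondrial transcripts took 2.54 to 8.96% of reads in Wnt5a and 1.77 to 3.39% in WT. On scaled totals, replicates 1 to 4 lay outside the WT range for these 3 marker sums, as they did for Tln1, Pxn and Zyx. The part of these markers in the values of the 10 genes and their partners was not tested.

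Of the kinase pair, Ptk2b was the more abundant transcript in LSK cells. It was at 181, 147, 191, 181 and 123 CPM in Wnt5a replicates 1 to 5, against a lowest, median and highest value of 69.0, 117 and 173 CPM in WT libraries, a log2 fold change of 0.43 (SE 0.23 and edgeR adjusted p = 0.319). Ptk2 was at 13.3, 3.1, 6.7, 19.4 and 14.4 CPM in Wnt5a, against a lowest, median and highest value of 4.6, 9.2 and 12.03 CPM in WT, a log2 fold change of 0.36 (SE 0.51 and edgeR adjusted p = 0.739). Both pairs of groups overlapped. Ptk2b reads exceeded Ptk2 reads in 11 of 11 libraries, with 4064 and 284 reads in all, although the exons of Ptk2 are longer (11803 bases, against 7398 in Ptk2b). There were 8.52 to 47.3 Ptk2b reads per Ptk2 read in Wnt5a and 11.5 to 15.6 in WT.

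Taking the 10 genes as a set, 7 passed edgeR's filter on low counts in LSK cells and 0 passed the test, where 0.0229% of 13098 genes passed by edgeR (3 genes, with 2414 at an unadjusted p under 0.05). Of the 7, 2 had an unadjusted p under 0.05, Tln1 and Crkl, in opposite directions. With 6 positive and 1 negative, the median log2 fold change was 0.36, beside 0.02 over all genes. Scaled by plain library totals the medians were 0.16 and -0.16, with the same 6 to 1 split. In CPM on scaled totals, none of the 7 had groups that did not overlap, which was so for 2.81% of all genes. Without Wnt5a replicate 5, the Wnt5a library with the highest Crkl value, 1 of the 7 passed, Crkl, where 8.32% of all genes passed. Vcl, Bcar1 and Ilk did not pass the filter: Vcl had 0, 1, 1, 0 and 5 reads in Wnt5a and 0 to 13 in WT, Bcar1 had 4, 1, 2, 0 and 0 reads in Wnt5a and 0 or 1 in WT, and no fold is given for them.

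Of 57 listed partners, 44 were tested in LSK cells and 0 passed edgeR's test, with 33 positive and 11 negative log2 fold changes and a median of 0.34. By unadjusted p of edgeR's test, 18 of the 44 were under 0.05, beside 2414 of all 13098 genes. The 4 with the smallest p were Tns3, a tensin that binds integrin tails and actin (log2 fold change 1.34, SE 0.29 and edgeR adjusted p = 0.0564), Arhgef7, the exchange factor β-PIX that joins PAK and GIT proteins (1.35, SE 0.30, 0.0607), the tyrosine kinase Abl1, which phosphorylates Crk proteins (1.01, SE 0.29, 0.106), and the actin cross-linker Actn1 (1.48, SE 0.44, 0.116). With plain library totals 26 of the 44 were positive, with a median of 0.15. DESeq2 called 6 of the 44 higher, where 3.09% of all genes were called higher, and edgeR with no filter called 4 of 57 higher, where 0.681% were. Without Wnt5a replicate 5, edgeR called 12 partners higher and 2 lower of 44, where 4.45% of all genes were called higher and 3.87% lower. The 12 include Tns3, Arhgef7, Abl1 and Actn1, together with Parvg, the parvin of blood cells that binds ILK (log2 fold change 0.74, edgeR adjusted p = 0.0178), the actin cross-linker Flna (0.79, 0.0222), Apbb1ip, the RIAM adaptor that brings talin to integrins (1.06, 0.0235), and the SRC family kinase Fyn (0.75, 0.0281). The 2 lower ones were the kinase Pak1 (-0.70, 0.0348) and the LIM protein Limd1 (-0.90, 0.0438). These values without replicate 5 were singled out after they were seen, and the 4 libraries they rest on are those whose neutrophil, mesenchymal and endothelial marker sums lay outside the WT range.

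Of 17 listed targets of MRTF and SRF, 10 were tested in LSK cells and 0 passed, with 6 positive and 4 negative log2 fold changes and a median of 0.10. The 4 with the smallest p were cytoplasmic actin Actb (0.48, SE 0.15, edgeR adjusted p = 0.128), the non-muscle myosin heavy chain Myh9 (0.80, SE 0.26, 0.133), the calponin Cnn2 (-0.61, SE 0.20, 0.135) and the early response factor Egr1 (-1.02, SE 0.64, 0.406). With plain library totals 4 of the 10 were positive, with a median of -0.081. DESeq2 called 1 of the 10 higher, Actb, beside its 3.09% of all genes, and edgeR called 1 higher without Wnt5a replicate 5, Myh9, beside its 4.45% of all genes.

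In the niche, most of the 10 genes took a larger share of pooled UMIs in EC than in OBC. At a minimum count of 10 edgeR tested only Tln1 and Ilk, and 0 passed between EC and OBC. Summed over the 6 libraries of a population (478853 UMIs in EC, 115672 in OBC and 248173 in MSC), Ilk had 106 UMIs in EC, 9 in OBC and 35 in MSC, and Tln1 had 92, 15 and 49 in the same order of populations. Pxn had 88 UMIs in EC, 2 in OBC and 32 in MSC. Zyx had 67, 2 and 23 in that order, and Vcl had 63, 3 and 14. Bcar1 had 59 UMIs in EC, 2 in OBC and 9 in MSC, Ptk2 had 57, 3 and 12, and Crk had 45, 2 and 20. Crkl had 2 UMIs in EC and 0 in OBC and MSC, and Ptk2b had 1 in EC, 4 in OBC and 3 in MSC. The 2 members that were lowest in the niche, Crkl and Ptk2b, had 1386 and 4064 reads over the LSK libraries. Relative to all UMIs, Pxn was 10.6 times as high in EC as in OBC (exact 95% interval 2.86 to 89.1, counting error only), Zyx 8.09 times (2.15 to 68.2), Bcar1 7.13 times (1.89 to 60.2), Ilk 2.85 times (1.44 to 6.39) and Tln1 1.48 times (0.853 to 2.75), so that the interval of Tln1 includes no difference. Ptk2b was 0.0604 times as high in EC as in OBC (0.00123 to 0.610), from 1 and 4 UMIs, and with no filter its log2 difference did not pass (-2.53, SE 1.21 and edgeR adjusted p = 0.234). A library with 3 UMIs of a gene corresponds to 101 to 282 CPM in OBC and to 25.4 to 162 CPM in EC, so most OBC values lie at the limit of detection.

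**Figure D3:**
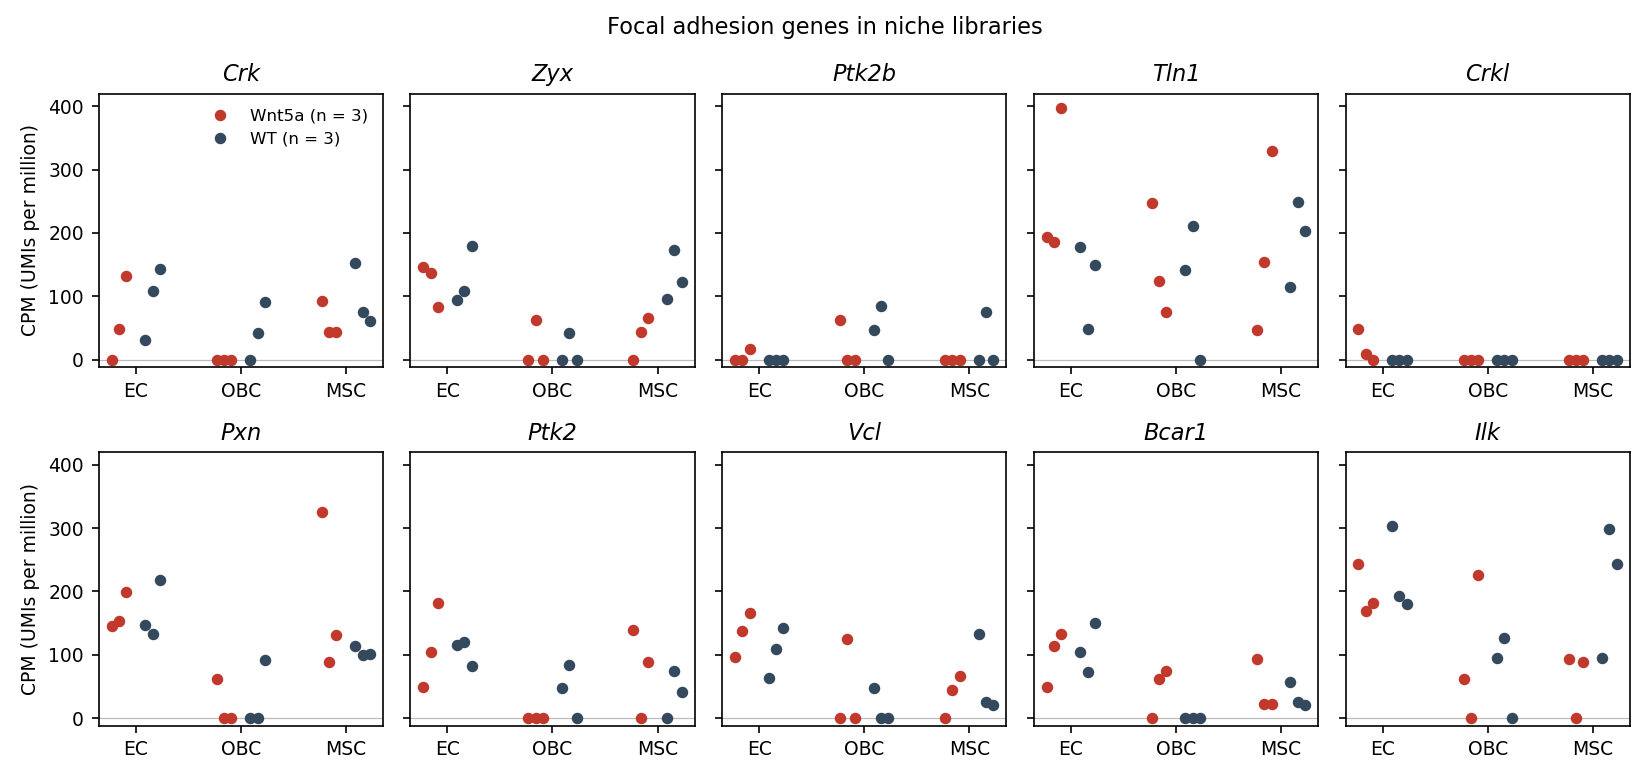
Levels of the 10 genes in niche libraries, in CPM on scaled UMI totals, for EC, OBC and MSC, with Wnt5a in red left of WT in blue within each population. Points are libraries (n = 3 per group). Crkl is above 0 in 2 EC libraries only, at 48.5 and 8.07 CPM, and Ptk2b is at 0 in most libraries but at 47.1, 61.9 and 84.5 CPM in 3 of the 6 OBC libraries and at 74.4 CPM in 1 WT MSC library. Pxn, Zyx, Vcl, Bcar1, Ptk2 and Crk have values above 0 in most EC libraries and at 0 in most OBC libraries.

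With the low-count filter at a minimum count of 10, only Tln1 and Ilk of the 10 were tested between populations, and 0 passed in any pair, where 48% of 1099 genes passed between EC and OBC, 3.55% between EC and MSC and 32.3% between OBC and MSC. Ilk had a log2 difference of 1.19 for EC over OBC (SE 0.57, edgeR adjusted p = 0.0801), and Tln1 had 0.33 (SE 0.50, edgeR adjusted p = 0.593). RLE scaling, which uses median ratios of counts, and plain totals put Ilk past the threshold (edgeR adjusted p = 0.0492 and 0.0264), as did leaving out OBC Wnt5a replicate 12 (0.0129). Pxn came past this filter in 7 of the 12 fits that left out 1 EC or OBC library, and in these 7 it was higher in EC (log2 difference 2.55 to 4.60, edgeR adjusted p = 0.000871 to 0.0117). At this filter too, Ilk and Pxn entered through EC or MSC counts and not through OBC, which favours a difference from OBC. These calls of Ilk and Pxn are therefore no support for such a difference. With the filter at a minimum count of 3, 8 of the 10 were tested and 7 were higher in EC than in OBC, where 18.3% of 5080 genes were called higher and the median log2 difference of all genes was 0.74 (0.49 with RLE scaling). The 6 genes that entered at the lower filter did so through EC or MSC counts and not through OBC. Such entry favours a difference from OBC, so their count is no support for a difference of the set. The log2 differences of the scaffolds were 3.31 for Pxn (SE 0.76, edgeR adjusted p = 0.000217) and 3.63 for Bcar1 (SE 1.04, 0.00442). That of the kinase Ptk2 was 3.51 (SE 1.05, 0.00658), that of Zyx 2.90 (SE 0.82, 0.00354), that of Crk 3.31 (SE 1.13, 0.0202), that of Vcl 2.42 (SE 0.77, 0.0121) and that of Ilk 1.61 (SE 0.53, 0.0149). Tln1 was at 0.75 (SE 0.47, edgeR adjusted p = 0.243), close to the median of all genes. DESeq2 called 3 of the 8 higher, Pxn, Zyx and Bcar1, where 8.62% of all genes were called higher. Leaving out 1 EC or OBC library gave 5 to 7 calls: Crk lost its call without EC WT replicate 15, EC Wnt5a replicate 18 or OBC Wnt5a replicate 11 (log2 differences over the 12 fits 2.85 to 3.67), Vcl without EC WT replicate 15 or OBC WT replicate 8 (2.15 to 4.39), and Ilk without EC WT replicate 13 or OBC Wnt5a replicate 11 (1.39 to 2.42).

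Between EC and MSC, 0 of the 8 passed at the lower filter, where 1.81% of genes did, and all 8 log2 differences were positive. They ran from 0.03 for Tln1 to 1.65 for Bcar1 (SE 0.59, edgeR adjusted p = 0.153), with a median of 0.10 over all genes. Between OBC and MSC, all 8 were negative and 1 passed, where 11.2% of genes did: Pxn was lower in OBC (log2 difference -2.84, SE 0.83, edgeR adjusted p = 0.00971), with a median of -0.63 over all genes. Pxn entered the filter through EC or MSC counts and not through OBC, which favours a difference from OBC. As 1 of 8 is also near the background, nothing is read from this call. At a minimum count of 10, Pxn was tested in 7 of the 12 fits that left out 1 OBC or MSC library and passed in 5. Its entry there was again not through OBC counts. Beside these differences, 8 of 8 tested endothelial markers had positive log2 differences for EC over OBC at a minimum count of 10, as did 633 of 1099 genes. Of the 8, 6 were called higher, where 28.4% of all genes were. Neutrophil markers summed to 6077 to 9963 CPM in Wnt5a OBC and 3061 to 5410 CPM in WT OBC, against 1324 to 2341 CPM in Wnt5a EC and 282 to 459 CPM in WT EC. Mitochondrial transcripts took 3.57 to 17.1% of UMIs in OBC and 0.950 to 2.65% in EC. Their part in the differences between populations was not tested.

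**Figure D4:**
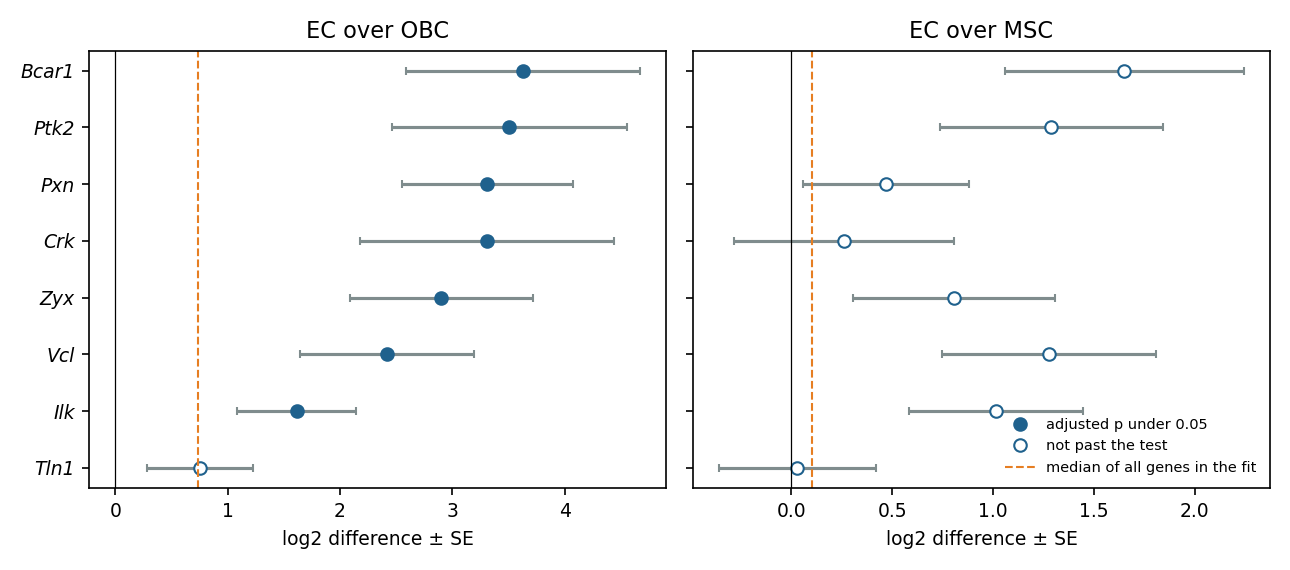
Log2 differences with their SE for the 8 genes tested at a minimum count of 3, EC over OBC in the left panel and EC over MSC in the right panel, from 6 libraries per population. Filled points passed at an edgeR adjusted p under 0.05 and dashed lines are medians of all 5080 genes (0.74 and 0.10). For EC over OBC, 7 points are filled, and Tln1 lies at the dashed line. Of the 7, the 6 other than Ilk entered the filter through EC or MSC counts, which favours a difference from OBC. For EC over MSC no point is filled.

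Of the focal adhesion partners, 10 of 57 were tested between populations at a minimum count of 10. In EC over OBC 5 were higher and 0 lower, where 28.4% of all genes were called higher. These were Lims2, a PINCH protein that binds ILK (log2 difference 1.66, SE 0.52, edgeR adjusted p = 0.00658), Rapgef1, an exchange factor that is carried by Crk proteins (1.42, SE 0.45, 0.00785), the tensins Tns1 (1.09, SE 0.39, 0.0188) and Tns2 (0.90, SE 0.38, 0.0479), and the actin cross-linker Actn4 (0.91, SE 0.34, 0.0235). The count was 3 without OBC WT replicate 7, without OBC WT replicate 9 or without OBC Wnt5a replicate 11, and Lims2 and Rapgef1 passed in each fit that left out 1 library. In OBC over MSC, where 19.4% of genes were called lower and 12.9% higher, Tns2 was lower (-0.99, SE 0.39, edgeR adjusted p = 0.0470), a call that held in only 4 of the 18 fits that left out 1 library (EC WT replicate 14, EC Wnt5a replicate 17, MSC WT replicate 1 or OBC Wnt5a replicate 10), and the MRTF and SRF target Tpm1, a tropomyosin, was higher (1.46, SE 0.47, 0.0118), a call lost without OBC WT replicate 8 or OBC Wnt5a replicate 10, with no filter and at a minimum count of 3. The 3 pairs of populations share libraries, so their values are not independent. None of the 10 partners or 9 MRTF and SRF targets passed in EC over MSC.

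The kinase pair was ordered differently inside the niche libraries than inside the LSK libraries. In EC, Ptk2 UMIs exceeded Ptk2b UMIs in 6 of 6 libraries, with 57 and 1 UMIs in all, whereas in LSK libraries Ptk2b exceeded Ptk2 in 11 of 11. In MSC, Ptk2 was the higher in 3 libraries and the pair were equal in 3, with 12 and 3 UMIs. In OBC the pair had 3 and 4 UMIs, which does not order them. For the adaptors the order was alike in both tables: Crk exceeded Crkl in 5 of 6 EC libraries (45 and 2 UMIs) and in 6 of 6 MSC libraries (20 and 0 UMIs). UMIs of transcript ends were not divided by length, and the comparison is within each library.

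**Figure D5:**
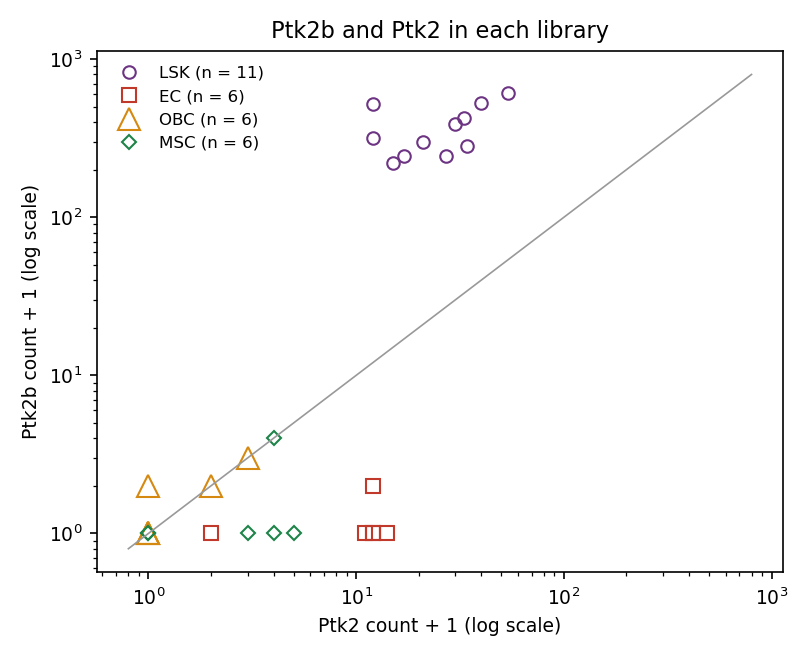
Counts of Ptk2b against Ptk2 in each of the 29 libraries, as count + 1 on log scales, with the line of equal counts. LSK points are reads and EC, OBC and MSC points are UMIs, so only the side of the line is compared. The 11 LSK libraries lie above the line and the 6 EC libraries below it, and some OBC and MSC libraries coincide on the line at low counts.

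Within the niche populations the comparison of Wnt5a with WT rests on few counts. Only Tln1 and Ilk passed the filter, and 0 of them passed the test in EC, OBC or MSC, where edgeR called 0.364%, 1% and 0.455% of 1099 genes. Tln1 had 4, 23 and 24 UMIs in Wnt5a EC and 17, 4 and 20 UMIs in WT EC, which is 194, 186 and 397 CPM against 178, 48.3 and 150 CPM. Each Wnt5a library was higher than each WT library, and groups did not overlap for 14.1% of genes in EC, and the log2 fold change was 1.02 (SE 0.51 and edgeR adjusted p = 0.583). It ran from 0.54 without EC Wnt5a replicate 18 and 0.67 without EC WT replicate 14 to 1.33 without EC WT replicate 13. EC WT replicate 14, the library at 48.3 CPM, had 24.3% of its UMIs in haemoglobin genes, against 3.79 to 6.28% in Wnt5a EC and 1.90 and 2.57% in the other WT EC libraries. Neutrophil markers summed to 1324 to 2341 CPM in Wnt5a EC and 282 to 459 CPM in WT EC, with none of 8 at 0 and 4 of the 5 tested called higher. Their part in the Tln1 values was not tested. In OBC Tln1 had 4, 2 and 1 UMIs in Wnt5a and 3, 5 and 0 in WT, and in MSC it had 1, 7 and 15 in Wnt5a and 6, 10 and 10 in WT, with log2 fold changes of 0.13 (SE 0.87) and 0.07 (SE 0.58). The sign in MSC turned with RLE scaling (-0.15) and plain totals (-0.05).

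Ilk had 2, 0 and 4 UMIs in Wnt5a MSC and 5, 12 and 12 UMIs in WT MSC, which is 93.1, 0 and 87.7 CPM against 94.99, 298 and 243 CPM. On these scaled totals each Wnt5a library was lower than each WT library, and groups did not overlap for 25.8% of genes in MSC. This order depends on the scaling. On plain library totals, MSC Wnt5a replicate 4 lay just above MSC WT replicate 1, which was at 99.2 CPM, so the groups overlapped. The log2 fold change of Ilk was -1.89 (SE 0.74 and edgeR adjusted p = 0.168, unadjusted p = 0.0142). In EC Ilk had 5, 21 and 11 UMIs in Wnt5a and 29, 16 and 24 in WT (log2 fold change -0.26, SE 0.53 and edgeR adjusted p = 0.921), and in OBC it had 1, 0 and 3 in Wnt5a and 2, 3 and 0 in WT. Over the 3 populations the mean log2 fold change was -0.71 for Ilk (SE 0.48, edgeR adjusted p = 0.467) and 0.41 for Tln1 (SE 0.39, edgeR adjusted p = 0.644), and 0 of the 2 passed where 2.82% of genes did. The difference of the genotype effect between populations did not pass either (edgeR adjusted p = 0.724 for Ilk and 0.822 for Tln1), where 0.455% of genes did.

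Among the 8 genes tested at a minimum count of 3, 0 passed in EC, OBC or MSC, where 0.0984%, 0.276% and 0.0591% of 5080 genes did. In MSC, Zyx had 0, 2 and 3 UMIs in Wnt5a and 5, 7 and 6 UMIs in WT, so that all Wnt5a libraries had fewer, with a log2 fold change of -1.50 (SE 0.82 and edgeR adjusted p = 0.542). Groups did not overlap in MSC for 25.8% of the 1099 genes tested at a minimum count of 10, where Zyx was not tested. Library totals were 19999 to 48279 UMIs in Wnt5a MSC and 37352 to 50421 UMIs in WT MSC. Pxn did not share this order, with 7, 4 and 6 UMIs in Wnt5a MSC and 6, 4 and 5 in WT MSC. In EC, Pxn had 3, 19 and 12 UMIs in Wnt5a and 14, 11 and 29 in WT. Ptk2 had 1, 13 and 11 UMIs in Wnt5a EC and 11, 10 and 11 in WT EC, and Vcl had 2, 17 and 10 in Wnt5a EC and 6, 9 and 19 in WT EC. Crk had 0, 6 and 8 UMIs in Wnt5a EC and 3, 9 and 19 in WT EC, Zyx had 3, 17 and 5 in Wnt5a EC and 9, 9 and 24 in WT EC, and Bcar1 had 1, 14 and 8 in Wnt5a EC and 10, 6 and 20 in WT EC. The totals of EC Wnt5a libraries ran from 18542 to 106757 UMIs, so their counts differ by depth as well.

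The partners of the niche populations did not pass either, with 10 tested and 0 past edgeR's test in each. In Wnt5a MSC, Lims2 had the smallest p (log2 fold change -1.77, SE 0.58 and edgeR adjusted p = 0.0951), followed by Rapgef1 (-1.45, SE 0.51, 0.123), the cross-linker Flna (0.82, SE 0.53, 0.431) and Tns2 (-0.56, SE 0.43, 0.521). ILK and its PINCH partner Lims2 thus both had negative values in MSC. Endothelial markers had negative values there too, with 8 of 8 tested negative, summed levels of 4807 to 6611 CPM in Wnt5a MSC and 9130 to 9777 CPM in WT MSC, and 0 of the 10 markers at 0 in either group, and neutrophil markers summed higher (2374 to 3907 CPM in Wnt5a MSC and 993 to 1339 CPM in WT MSC). Their part in the values of Ilk and Lims2 was not tested. In Wnt5a EC the 4 partners with the smallest p were Lims2 (-0.90, SE 0.46, edgeR adjusted p = 0.583), the kinase Pak2 (-0.64), the actin elongation factor Vasp (0.53) and the GTPase Rap1b (0.53). In Wnt5a OBC they were Vasp (1.61, SE 0.64, edgeR adjusted p = 0.334), Flna (-0.88), Tns2 (-0.80) and Rap1b (0.95).

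Of the MRTF and SRF targets, 9 of 17 were tested in each niche population and 0 passed. Those with the smallest p in Wnt5a EC were the matricellular gene Ccn1 (log2 fold change 1.14, SE 0.50 and edgeR adjusted p = 0.499), Ccn2 (-0.97), Egr1 (0.73) and Actb (0.39). In Wnt5a OBC they were Tpm1 (-1.57, SE 0.62, edgeR adjusted p = 0.334), Cnn2 (1.51, SE 0.75, 0.569), Ccn2 (-1.91) and the transgelin Tagln2 (-1.06). In Wnt5a MSC they were Cnn2 (-1.41, SE 0.65, edgeR adjusted p = 0.245), Tpm1 (-0.56), Actb (0.34) and Ccn2 (0.45). Cnn2 had values of opposite sign in OBC and MSC, and the interaction of genotype with population did not pass for it (edgeR adjusted p = 0.504).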

How the data were processed

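Gene expression was measured in 29 mouse libraries, 11 of LSK cells and 18 of niche cells. The authors deposited whole-number counts per Ensembl gene: reads for LSK (Smart-seq2) and UMIs for the niche (barcoded, pooled cDNA), per the labels' protocols. The submitters' processing notes name STAR, featureCounts and mm10 (GRCm38), with no versions. How UMIs were collapsed, the annotation release and the strand setting are not given there or in the labels. Symbols were found for 37607 LSK and 17973 niche IDs, and 28 spike-in entries of the niche table were left out of totals.

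From the deposited counts, CPM were computed on TMM-scaled totals, and either table had its own fit by edgeR 4.0.16 (R 4.3.3, filterByExpr by group, minimum count 10, minimum total 15, robust quasi-likelihood test). A gene passed when its p, adjusted by Benjamini-Hochberg over every gene tested, was under 0.05. All adjusted p-values are of this test unless another tool is named, and the SE is the log2 fold change over the square root of F. The 18 niche libraries shared 1 fit of 6 group means, and comparisons between populations average both genotypes. Exact intervals of pooled UMI ratios cover counting error only. Alternatives were RLE scaling, plain totals, no filter, a minimum count of 3, DESeq2 1.42.0, limma 3.58.1 (voom), leaving out gene classes and leaving out each library. At a minimum count of 3, the other alternatives were added after seeing the data. The fit was tested on simulated data. Gene coordinates and exon overlaps come from GENCODE (GRCm38), and promoters from RefSeq (GRCm38.p6).

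The 10 genes and all lists were chosen with earlier results of these data known. All 10 genes were named in every comparison. Of the partners and of the MRTF and SRF targets, those past the test were named, and otherwise the 4 with the smallest p in each genotype comparison. Wnt5a itself was not analysed here.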

Additional observations from a re-analysis of the deposited data

Results flagged for a closer look

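In groups of 4 to 10 libraries, the highest and lowest values were set against the rest of their group by Dixon's ratio. Of 28 groups checked, 5 had a library that stood apart at the 95% critical value. The groups share libraries and some hold mostly counts at or near 0, so the number of groups is not set against chance. In 4 of the 5 the library was LSK Wnt5a replicate 5. Its Zyx level was 120 CPM, below the other 4 Wnt5a libraries. Its Vcl level was 2.18 CPM from 5 reads, above the others. It had 28.4 Crkl reads per 100 Crk reads, above the others, and immunoglobulin genes took 8.28% of its reads. The fifth was Ilk in LSK WT replicate 3, at 0.317 CPM from 2 reads in a group otherwise at 0.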

How the results depend on the processing

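Of 531 values of single genes under the alternatives, 481 kept their direction and their side of the threshold, 13 lost the call, 7 gained one and 30 turned in sign. Of 298 counts of genes past the test, 277 stayed within 1.5 times the reported count. These include counts of 0 that stayed at 0, and the main niche fit tested only 2 of the 10 genes. The 277 are therefore not a measure of how stable the results are. In LSK cells, 1 of the 10 genes passed (Crkl) among libraries with 4-digit label numbers, where 6.34% of all genes passed. Leaving out 1 library gave 0 to 1, and 8.32% of all genes passed without Wnt5a replicate 5. Crkl passed only in fits without that library, which had the highest Crkl value of the Wnt5a libraries. Between EC and OBC the count was 1 with RLE scaling, 1 with plain totals, 7 with no filter, 7 at a minimum count of 3 and 0 to 2 on leaving out 1 library. Of all genes, 48% passed at the main setting, and 18.3% were called higher in EC at a minimum count of 3. The genes added by the looser filters have few or no UMIs in OBC, and at the main filter Ilk and Pxn entered through EC or MSC counts. These counts are therefore not read as a result about the set. At a minimum count of 3, DESeq2 gave 3 in place of 7, where it called 8.62% of all genes higher. Between OBC and MSC the count was 1 with no filter, 1 at a minimum count of 3 and 0 to 1 on leaving out 1 library. Of all genes, 32.3% passed at the main setting and 11.2% at a minimum count of 3. The cause of these changes was not tested, apart from the filters, which change how many of the genes are tested.

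Signs turned only in values that did not pass. Ptk2 in LSK was -0.19 with 4-digit label numbers. Ilk in OBC was -0.071 with no filter, -0.062 at a minimum count of 3, -0.13 with limma voom and -0.018 without haemoglobin, mitochondrial and rRNA-overlapping genes. Tln1 in MSC was -0.15 with RLE scaling, -0.053 with plain totals, -0.19 with DESeq2 and -0.022 with limma voom. Tln1 in EC over MSC was 0.051 with RLE scaling, 0.040 with plain totals, 0.15 with no filter, 0.030 at a minimum count of 3 and 0.059 with DESeq2. On leaving out 1 library, log2 fold changes ran from -0.36 to 0.079 for Ilk in EC, from -1.42 to 0.61 for Ilk in OBC, from -0.46 to 0.69 for Tln1 in OBC and from -0.89 to 0.26 for Tln1 in MSC. Between populations they ran from -0.20 to 0.44 for Tln1 in EC over MSC, from -0.73 to 0.036 for Tln1 in OBC over MSC and from -1.02 to 0.13 for Ilk in OBC over MSC. No paired analysis was made because the labels state no pairing. The LSK replicate numbers only name libraries and the niche numbers are all different. Comparisons between populations therefore treat libraries as independent.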
